A study of Drosophila melanogaster with 8 samples.

Results

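The integrated stress response and the unfolded protein response were described here through 10 genes of the ATF4, Xbp1 and Xrp1 stress responses: crc, PEK, Gcn2, Ire1, Xbp1, Hsc70-3, Thor, Xrp1, Irbp18 and p53. They were chosen by name, with earlier results of these data known, and each was found by its FlyBase identifier among the 15682 gene rows of the count table. All 10 had enough counts in both diets to be tested.

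The tissue was tumour tissue of the larval eye disc of Drosophila melanogaster, taken from animals with mosaic clones in the eye epithelium. Clones were made by an FLP recombinase under eyeless control, expressed GFP and ras1 G12V, an oncogenic form of the fly Ras gene, through an actin GAL4 driver, and were homozygous for csk Q156Stop, which removes a kinase that restrains Src. Animals of both groups carried this same Ras/Src genotype and were fed a Bloomington semi-defined medium in which sucrose was the only purified sugar, at 0.15 M in the control diet (CD, dissected at day 8) or 1.0 M in the high sucrose diet (HSD, dissected at day 14). RNA of pooled dissected tissue was sequenced in 4 libraries per diet, described as biologically independent, and the comparison asked which transcripts differed between Ras/Src tumours of animals on HSD and on CD.

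Tumours on HSD were 6 days older than tumours on CD, so diet and age at dissection cannot be told apart in any value below. The paper states that HSD delayed larval development and that larvae of both diets were used late in the third instar. No tumour-free eye disc was analysed here, and a clone driver that acts only in part of the dissected tissue leaves non-clonal cells in each sample. In such bulk samples, fewer cells of a type and less RNA per cell cannot be told apart.

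Cells answer several kinds of stress by slowing the start of translation while a few transcripts are translated more. PERK (PEK in flies), which senses misfolded protein in the endoplasmic reticulum (ER), and Gcn2, which senses a shortage of amino acids, phosphorylate the alpha subunit of eIF2, and translation of the bZIP factor ATF4 (crc in flies) then rises. In a parallel arm, Ire1 splices the Xbp1 transcript so that it encodes an active bZIP factor for ER chaperone and degradation genes. Much of this control acts on phosphorylation, splicing and translation, which counts of transcripts do not measure. Xrp1 is a fly bZIP factor that acts with its partner Irbp18 in cells with ribosomal protein mutations and in cell competition, and p53 is the transcription factor of the DNA damage response.

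Total counts ranged from 11558860 to 19963565 per library, and 9257 genes were tested. Of these, 2400 (25.9%) were called higher in HSD and 2423 (26.2%) lower, where called means an adjusted p under 0.05 in the quasi-likelihood test of edgeR, adjusted for all 9257 genes by the method of Benjamini and Hochberg. Every HSD library lay above every CD library in 2309 genes (24.9%). Levels are given as counts per 1000000 counts (CPM), with library sizes adjusted by TMM (a trimmed mean of log ratios between libraries), in the order of replicates 1 to 4. With TMM the median difference over all genes was close to 0, and other scalings moved that median.

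8 of the 10 genes rose in HSD, none was called lower, and 2 were not called, beside 25.9% of all genes called higher. Under scaling to ribosomal protein genes 5 of the 10 were called higher and 1 lower, beside 11.6% of all genes called higher. On the TMM scale the genes that rose were crc, PEK, Ire1, Xbp1, Thor, Xrp1, Irbp18 and p53. In 6 of them (crc, PEK, Xbp1, Xrp1, Irbp18 and p53) every HSD library lay above every CD library, beside 24.9% of all genes tested. The median log2 fold change of the 10 genes was 0.53, against 0.0009 over all genes tested. Gcn2 and Hsc70-3 were not called.

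**Figure D1:**
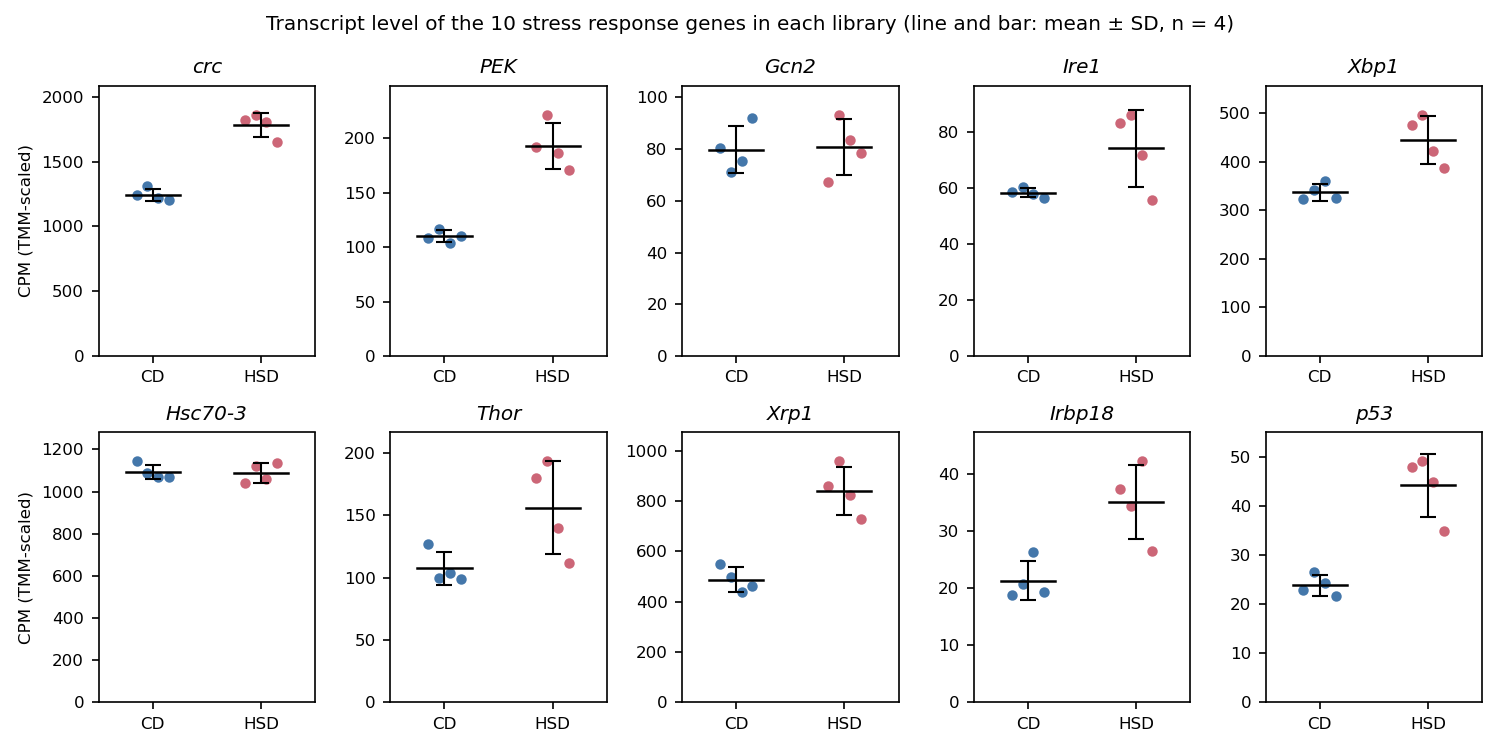
Level of each of the 10 genes in each library, in CPM scaled by TMM, with each axis starting at 0. Points are libraries, and the line and bar are the mean and SD of the 4 libraries of a diet. The diets were apart without overlap in crc, PEK, Xbp1, Xrp1, Irbp18 and p53, and overlapped in Gcn2, Ire1, Hsc70-3 and Thor.

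Of the sensor kinases of the integrated stress response, PEK rose and Gcn2 was not called. PEK (FBgn0037327), the ER kinase, lies on chromosome 3R from 5458563 to 5464753, minus strand (positions of all genes are those of the BDGP6 annotation). Its level was 108.5, 117.1, 103.8 and 110.1 CPM in the CD libraries and 192.3, 221.6, 187.0 and 171.2 CPM in the HSD libraries. All 4 HSD libraries lay above all 4 CD libraries. PEK rose 1.76-fold, from 110 ± 5.54 to 193 ± 21.0 CPM (SD, n = 4 per diet), a log2 fold change of 0.81 ± 0.086 (SE; edgeR quasi-likelihood test, adjusted p = 1.84e-05).

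Gcn2 (FBgn0019990), the kinase that binds uncharged tRNA, lies on chromosome 3R from 31395660 to 31402013, plus strand. PNPase, on the opposite strand, overlaps 7.9% of its exon bases and had 383 to 617 counts in CD and 657 to 769 in HSD. The level of Gcn2 was 80.3, 71.0, 75.5 and 92.2 CPM in CD and 67.4, 93.2, 83.7 and 78.7 CPM in HSD. The highest and the lowest of the 8 values both came from HSD, and the diets overlapped over nearly their whole ranges. The log2 fold change was 0.02, with a 95% interval from -0.24 to 0.27 (edgeR quasi-likelihood test, adjusted p = 0.914), so a change of the size seen in PEK lay outside this interval.

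The ratio of PEK to Gcn2 counts within each library does not change with the scaling. This ratio and 3 others below were chosen after the values had been seen, so they are given as descriptions. In an exact permutation test of the diets, adjusted over the 4 ratios, none had an adjusted p under 0.05. With 4 libraries per diet that test cannot give an unadjusted p below 0.0286. PEK to Gcn2 and Xbp1 to Hsc70-3 were at that floor, with an adjusted p of 0.0572 (exact permutation test). They could pass only if a further ratio reached the floor too, so missing the threshold says little about them. PEK to Gcn2 was 1.35, 1.65, 1.37 and 1.19 in CD and 2.85, 2.38, 2.24 and 2.18 in HSD. Every HSD library was above every CD library, and the mean log2 ratio was higher by 0.79.

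**Figure D2:**
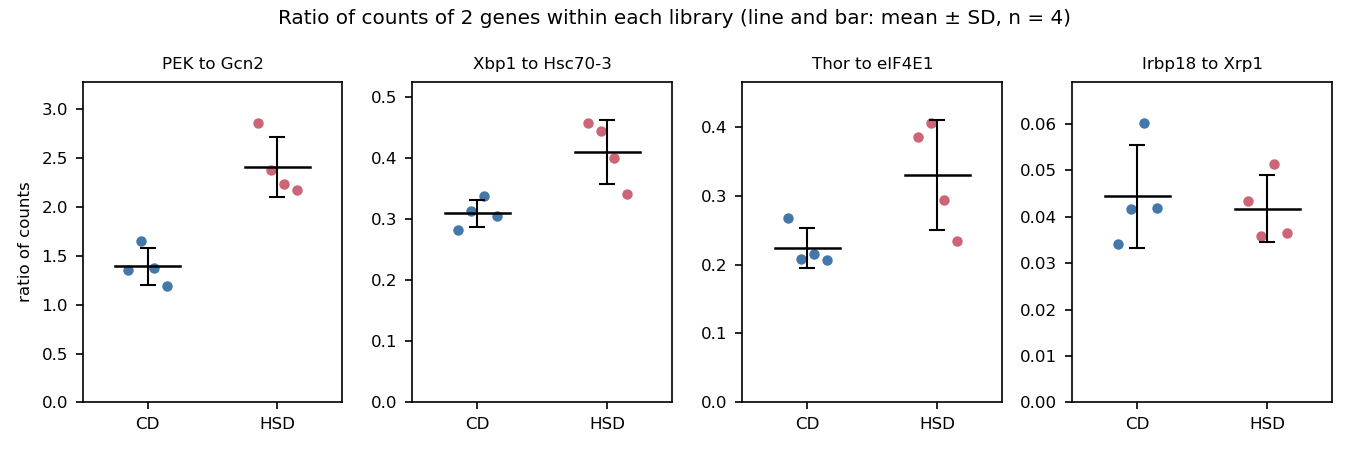
Ratio of the counts of 2 genes within each library for 4 pairs, with each axis starting at 0. Points are libraries, and the line and bar are the mean and SD of 4. PEK to Gcn2 and Xbp1 to Hsc70-3 did not overlap between diets, while Thor to eIF4E1 and Irbp18 to Xrp1 did.

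crc (FBgn0000370), the fly ATF4, was the most abundant of the 10 transcripts per length. It lies on chromosome 2L from 21310866 to 21319527, plus strand. Its level was 1245, 1312, 1218 and 1207 CPM in CD and 1823, 1860, 1803 and 1653 CPM in HSD. The libraries of a diet lay close together, and the gap between the diets was wider than the range within either. crc rose 1.43-fold, with a log2 fold change of 0.52 ± 0.056 (SE, n = 4 per diet; edgeR quasi-likelihood test, adjusted p = 2.03e-05). In the BDGP6 annotation 73.5% of the exon bases of crc are shared with CG46314, a gene on the same strand that had no row of its own, so reads of the 2 genes could not be separated.

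Thor (FBgn0261560) encodes 4E-BP, which binds the cap-binding protein eIF4E and restrains translation, and is a transcriptional target of both ATF4 and the insulin-regulated factor FOXO. It lies on chromosome 2L from 3478434 to 3479612, plus strand. Its level was 127.2, 99.7, 104.2 and 99.1 CPM in CD and 179.7, 193.3, 140.1 and 112.0 CPM in HSD. HSD replicate 4 lay below CD replicate 1, and the other 3 HSD libraries lay above every CD library. Thor rose 1.45-fold, with a log2 fold change of 0.54 ± 0.16 (SE, n = 4 per diet; edgeR quasi-likelihood test, adjusted p = 0.0150). It was not called under scaling to ribosomal protein genes (0.18 on the log2 scale).

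eIF4E1, which encodes the main cap-binding protein that Thor binds, was level between the diets, at 476 to 485 CPM in CD and 466 to 478 CPM in HSD (log2 fold change -0.02, 95% interval -0.12 to 0.09). The ratio of Thor to eIF4E1 counts was 0.267, 0.208, 0.215 and 0.206 in CD and 0.385, 0.405, 0.294 and 0.234 in HSD. HSD replicate 4 fell inside the CD range. The mean log2 ratio was 0.53 higher in HSD.

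Of the 7 other genes with a row among listed targets of ATF4, Thor left out, 3 rose, 1 fell and 3 were not called. Over all genes, 25.9% were called higher and 26.2% lower. The median log2 fold change of the 7 was 0.59 (2 higher and 1 lower under scaling to ribosomal protein genes). Nmdmc, a mitochondrial enzyme of folate metabolism, moved most: its levels were 20.9, 21.0, 27.4 and 30.4 CPM in CD and 91.5, 108, 80.6 and 80.5 CPM in HSD. Each HSD library lay far above the highest CD library, and the log2 fold change was 1.85 ± 0.15 (SE; edgeR quasi-likelihood test, adjusted p = 3.00e-06). Shmt, serine hydroxymethyltransferase, rose by 0.76 on the log2 scale, and trbl (tribbles), a pseudokinase, by 0.59. Sesn, the fly sestrin, fell, from 17.3 to 19.4 CPM in CD to 8.53 to 12.7 CPM in HSD, a log2 fold change of -0.84.

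P5CS, an enzyme of proline synthesis, was at 3.88 to 12.7 CPM in CD and 7.31 to 21.0 CPM in HSD. Its ranges overlapped through CD replicate 1 (12.7 CPM), while CD replicates 2, 3 and 4 (5.25, 4.94 and 3.88 CPM) lay below every HSD library. The log2 fold change of 1.07 missed the threshold (edgeR quasi-likelihood test, adjusted p = 0.0579). With Thor, 4 genes of the list were called higher, and 2 under scaling to ribosomal protein genes. 5 were called without CD replicate 1, without HSD replicate 1, and with DESeq2 or limma-voom. A filter of at least 10 counts in every library also gave 5. The list also held aay and P5cr-2, both not called.

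The factors on which the kinases act were also measured. Of 11 genes for eIF2, eIF2B, the eIF2 phosphatase subunit and related initiation factors, 8 rose and none was called lower. Among all genes, 25.9% were called higher and 26.2% lower. The list's median log2 fold change was 0.51 (3 higher and 1 lower under scaling to ribosomal protein genes, 6 and 1 under total counts). All 3 subunits of eIF2 rose: eIF2alpha, which carries the phosphorylated serine, by 0.55 on the log2 scale, eIF2beta by 0.61 and eIF2gamma by 0.59. eIF2gamma, for example, was at 209 to 228 CPM in CD and 316 to 335 CPM in HSD.

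Of the subunits of eIF2B, the exchange factor that phosphorylated eIF2 inhibits, eIF2Bgamma and eIF2Bepsilon rose most, by 0.68 and 0.66 on the log2 scale. eIF2Bbeta was not called, at 0.16. PPP1R15, the subunit that directs a phosphatase to eIF2alpha and so ends the response, was at 68.6 to 79.2 CPM in CD and 72.2 to 87.5 CPM in HSD, ranges that overlapped. Its log2 fold change of 0.17 had a 95% interval from -0.02 to 0.37 (edgeR quasi-likelihood test, adjusted p = 0.129).

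In the Ire1 arm, Ire1 and Xbp1 rose and the chaperone Hsc70-3 was not called. Ire1 (FBgn0261984), the ER kinase and endoribonuclease, lies on chromosome 3R from 19853908 to 19861291, minus strand. Its level was 58.5, 60.2, 57.8 and 56.3 CPM in CD and 83.0, 85.9, 71.7 and 55.6 CPM in HSD. HSD replicate 4 was the lowest of the 8 libraries and the other 3 HSD libraries lay above all CD libraries. MICU3, on the opposite strand, overlaps 12.3% of the exon bases of Ire1. It had 369, 410, 399 and 428 counts in CD and 486, 545, 475 and 313 counts in HSD. Ire1 rose 1.27-fold, a log2 fold change of 0.35 ± 0.13 (SE, n = 4 per diet; edgeR quasi-likelihood test, adjusted p = 0.0410), and this call was lost when any 1 of 5 libraries was left out (CD replicates 3 and 4 and HSD replicates 1, 2 and 3, with log2 fold changes of 0.36, 0.36, 0.29, 0.27 and 0.37 and adjusted p-values from 0.0602 to 0.119).

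Xbp1 (FBgn0021872) lies on chromosome 2R from 21143545 to 21145750, plus strand, and its counts hold spliced and unspliced transcripts together. Its level was 322.8, 341.3, 360.7 and 325.2 CPM in CD and 475.0, 496.7, 422.9 and 387.1 CPM in HSD. All HSD libraries lay above all CD libraries, with HSD replicate 4 nearest to CD. Xbp1 rose 1.32-fold, a log2 fold change of 0.40 ± 0.083 (SE, n = 4 per diet; edgeR quasi-likelihood test, adjusted p = 0.00199). It was not called under scaling to ribosomal protein genes (0.05 on the log2 scale).

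Hsc70-3 (FBgn0001218) encodes BiP, the Hsp70 chaperone of the ER lumen and a target of the unfolded protein response that is widely used as its marker. It lies on the X chromosome from 11801696 to 11807117, minus strand. Its level was 1143, 1089, 1070 and 1068 CPM in CD and 1040, 1120, 1059 and 1138 CPM in HSD. The ranges overlapped and the means were 1093 ± 34.9 and 1089 ± 47.0 CPM (SD, n = 4 per diet). With a log2 fold change of -0.0048 and a 95% interval from -0.12 to 0.11 (edgeR quasi-likelihood test, adjusted p = 0.949), rises as large as that of Xbp1 lay outside the interval on the TMM scale.

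Xbp1 counts relative to Hsc70-3 counts were 0.282, 0.313, 0.337 and 0.304 in CD and 0.457, 0.443, 0.399 and 0.340 in HSD. The diets did not overlap, although HSD replicate 4 and CD replicate 3 were close. The mean log2 ratio was 0.40 higher in HSD.

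Of 11 other ER chaperones and folding enzymes tested, 3 (27.3%) rose, a share near the 25.9% of all genes, none was called lower and 8 were not called, with a median log2 fold change of 0.08. Gp93 (the ER Hsp90), Calr (calreticulin), Cnx99A (calnexin), ERp60 and Grp170 had log2 fold changes of 0.05, -0.14, -0.08, -0.09 and 0.08. None of these 5 passed the test. Under scaling to ribosomal protein genes, the split of these 11 was 2 higher and 6 lower, and under total counts it was 3 higher and 3 lower.

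The 3 genes that rose were Ero1L, CaBP1 and P58IPK. Ero1L, the oxidase that drives disulphide formation, was at 32.3, 38.6, 31.8 and 37.0 CPM in CD and 82.4, 85.3, 73.2 and 40.2 CPM in HSD. HSD replicate 4 again lay close to CD while the other 3 were about level with each other, and the log2 fold change was 1.01 ± 0.20 (SE; edgeR quasi-likelihood test, adjusted p = 0.00173). CaBP1, a protein disulphide isomerase, rose by 0.68 and P58IPK, a co-chaperone of BiP, by 0.38 on the log2 scale.

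Of 10 genes of ER-associated degradation tested, 3 rose, a share near the 25.9% of all genes called higher. The rises were small: Hrd3 by 0.45, Der-2, a derlin, by 0.43 and Herp by 0.31 on the log2 scale. The call for Herp was lost without CD replicate 3 (0.27) or HSD replicate 1 (0.26). None was called lower and the list's median log2 fold change was 0.11. Under scaling to ribosomal protein genes none of the list was called higher and 3 were called lower, and under total counts 1 was higher and 2 lower.

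Of 13 genes for translocation into the ER and its regulator, 4 rose, a share near the 25.9% of all genes called higher. One of the 13, CrebA, fell, beside 26.2% of all genes called lower. The median log2 fold change of this list was 0.12. SrpRbeta, a subunit of the signal recognition particle receptor, rose by 0.57, Sec61beta by 0.34 and SsRbeta by 0.27 on the log2 scale. CrebA, the bZIP factor that drives secretory pathway genes in flies, fell by 0.51 on the log2 scale. Without CD replicate 1, 7 genes of this list were called higher. That library held far more counts of salivary gland markers, mainly glue genes, than the others (4711 CPM summed over 8 genes, against 6.0 to 20.4 CPM in the other CD libraries and 13.1 to 304 CPM in HSD), and the part of this tissue in the list's values was not tested. Under scaling to ribosomal protein genes none of the list was higher and 4 were lower, and under total counts 1 was higher and 2 lower.

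Of 6 partners of the ER stress sensors, 1 rose and 1 fell, beside 25.9% of all genes called higher and 26.2% lower. Their median log2 fold change was 0.11 (none higher and 2 lower under scaling to ribosomal protein genes, 1 and 2 under total counts). RtcB, the ligase that joins Xbp1 exons in mammals, rose by 0.62 on the log2 scale, from 55.8 to 69.3 CPM in CD to 84.6 to 108 CPM in HSD. Every HSD library lay above every CD library. S2P, a protease that releases the third ER sensor ATF6 in mammals, fell by 0.27, a call that was lost when any 1 of 6 libraries was left out (all except CD replicate 4 and HSD replicate 1), with log2 fold changes from -0.27 to -0.21. Atf6 itself was at 118 to 131 CPM in CD and 91.6 to 114.6 CPM in HSD. Its ranges did not overlap, yet its log2 fold change of -0.21 missed the threshold (edgeR quasi-likelihood test, adjusted p = 0.0569).

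**Figure D3:**
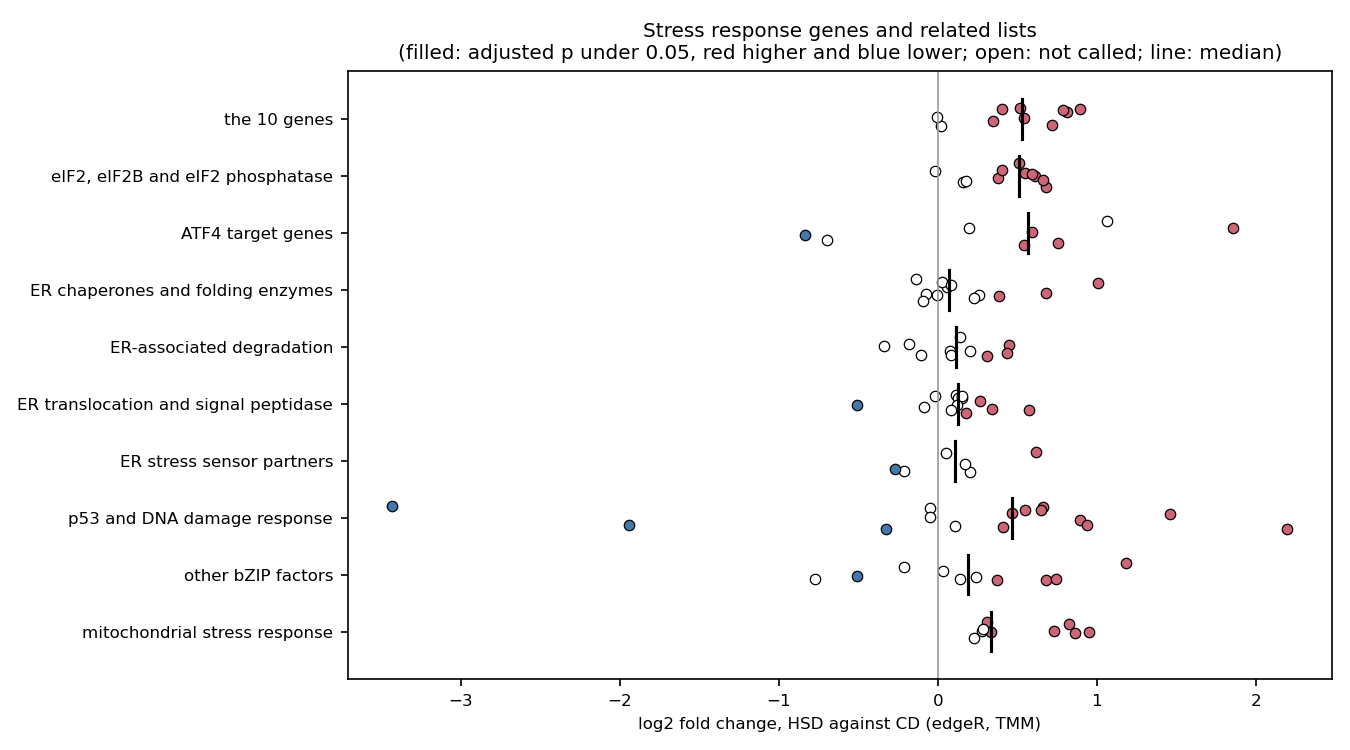
Log2 fold change (HSD against CD, edgeR with TMM scaling) of every gene tested, by list. Filled points passed an adjusted p under 0.05 (red higher, blue lower), open points did not, and vertical lines are list medians. The median was 0.53 for the 10 genes, 0.51 for eIF2 and eIF2B, 0.56 for ATF4 targets (with Thor) and 0.07 for ER chaperones and folding enzymes (with Hsc70-3).

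Xrp1 and its partner Irbp18 both rose. Xrp1 (FBgn0261113) lies on chromosome 3R from 18914968 to 18926989, plus strand. Its level was 552.0, 499.0, 437.0 and 463.5 CPM in CD and 858.5, 958.1, 823.1 and 728.1 CPM in HSD. The lowest HSD library was well above the highest CD library. Xrp1 rose 1.73-fold, a log2 fold change of 0.79 ± 0.095 (SE, n = 4 per diet; edgeR quasi-likelihood test, adjusted p = 4.76e-05).

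Irbp18 (FBgn0036126), a small bZIP factor that dimerises with Xrp1, lies on chromosome 3L from 11097446 to 11098186, minus strand. Its level was 18.8, 20.8, 26.3 and 19.4 CPM in CD and 37.3, 34.4, 42.2 and 26.6 CPM in HSD. HSD replicate 4 exceeded CD replicate 3 only narrowly, so the diets barely cleared each other. Irbp18 rose 1.65-fold, a log2 fold change of 0.72 ± 0.17 (SE, n = 4 per diet; edgeR quasi-likelihood test, adjusted p = 0.00406). It had 228 to 760 counts per library, fewer than any other of the 10, and 15.5% of its exon bases overlap CG33947 on the opposite strand, which had 122 to 215 counts in CD and 60 to 108 in HSD.

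The ratio of Irbp18 to Xrp1 counts was 0.0341, 0.0417, 0.0602 and 0.0418 in CD and 0.0435, 0.0359, 0.0513 and 0.0365 in HSD. The HSD range lay within the CD range, and the mean log2 ratio differed by -0.07.

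p53 (FBgn0039044) lies on chromosome 3R from 23049657 to 23054082, minus strand. Its level was 22.8, 26.6, 24.3 and 21.8 CPM in CD and 48.0, 49.2, 45.1 and 35.0 CPM in HSD. All HSD libraries lay above all CD libraries, and HSD replicate 4 again was the nearest to CD. p53 rose 1.86-fold, the largest fold of the 10 genes, with a log2 fold change of 0.89 ± 0.13 (SE, n = 4 per diet; edgeR quasi-likelihood test, adjusted p = 0.000211).

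Other genes overlap the p53 locus. An antisense RNA with no count row, asRNA:CR46089, covers 38.0% of the p53 exon bases on the other strand. Gr94a, a gustatory receptor gene within the p53 span on the opposite strand and outside its exons, had 7, 7, 0 and 28 counts in CD and 149, 246, 207 and 79 counts in HSD. These counts too were higher in every HSD library than in any CD library. The library kit kept strand, but the strand setting used in counting was not given in the sources used here, and the part of neighbouring transcripts in the p53 value was not tested.

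Of 14 other genes of the p53 and DNA damage response, 8 rose, 3 fell and 3 were not called. Over all genes, 25.9% were called higher and 26.2% lower. The median log2 fold change of the 14 was 0.44. The antagonists of the apoptosis inhibitor Diap1 went in both directions: rpr and hid rose, and skl and grim fell. hid was at 92.2 to 118 CPM in CD and 163 to 222 CPM in HSD. Its log2 fold change was 0.94 (edgeR quasi-likelihood test, adjusted p = 3.42e-05). rpr (reaper) was at 16.7, 16.7, 15.6 and 20.5 CPM in CD and 84.3, 69.5, 91.3 and 74.2 CPM in HSD. Its diets were far apart, with a log2 fold change of 2.20 ± 0.13 (SE; edgeR quasi-likelihood test, adjusted p = 3.82e-07).

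skl (sickle) and grim, of the same gene cluster and the same function, fell. skl was at 12.1, 13.5, 22.02 and 12.9 CPM in CD and 1.65, 2.04, 1.06 and 0.793 CPM in HSD, a log2 fold change of -3.43 ± 0.38 (SE; edgeR quasi-likelihood test, adjusted p = 2.38e-05). grim fell by 1.94 on the log2 scale. In both, every HSD library lay below every CD library.

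Corp, which restrains p53 in flies, rose by 1.46 on the log2 scale, from 3.88 to 5.80 CPM in CD to 11.2 to 14.5 CPM in HSD. Under scaling to ribosomal protein genes, the split of these 14 genes was 4 higher and 4 lower.

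Among 10 other bZIP factors tested, 4 rose and 1 fell, beside 25.9% of all genes called higher and 26.2% lower. Their median log2 fold change was 0.19 (3 higher and 3 lower under scaling to ribosomal protein genes, 4 and 2 under total counts). kay, the fly Fos, rose most: it was at 162.5, 131.5, 126.1 and 122.6 CPM in CD and 320, 345, 307 and 258 CPM in HSD. No library of one diet reached the other, and the log2 fold change was 1.18 ± 0.11 (SE; edgeR quasi-likelihood test, adjusted p = 8.07e-06). Jra, the fly Jun, rose by 0.74, Atf3 by 0.68 and cnc, the fly Nrf factor, by 0.37 on the log2 scale. CrebA fell, as given above.

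Of 9 genes of the mitochondrial stress response 6 rose and none was called lower, beside 25.9% and 26.2% of all genes. Their median log2 fold change was 0.33 (4 higher and none lower under scaling to ribosomal protein genes). Hsp60A, the chaperonin of the mitochondrial matrix, was at 419, 418, 422 and 375 CPM in CD and 877, 793, 757 and 735 CPM in HSD. Every HSD library was far above every CD library, with a log2 fold change of 0.95 ± 0.070 (SE; edgeR quasi-likelihood test, adjusted p = 1.51e-06). Hsc70-5, the mitochondrial Hsp70, rose by 0.86, CG11267, the fly Hsp10, by 0.83 and Lon, a matrix protease, by 0.73 on the log2 scale. The mitochondrial chaperone Hsp60A thus rose by 0.95 while the ER chaperone Hsc70-3 had a log2 fold change of -0.0048, each in the same 8 libraries.

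Per kilobase of merged exon, crc was the highest of the 10 genes in both diets, at 364 CPM per kb in CD and 521 in HSD, followed by Hsc70-3 at 304 and 303. In CD the order went on with Xbp1 (158), Thor (142), Xrp1 (101), Irbp18 (34.7), PEK (22.5), Ire1 (14.4), Gcn2 (13.9) and p53 (11.2 CPM per kb). Xbp1 and Thor overlapped over their CD libraries, as did Ire1, Gcn2 and, with Gcn2, p53, so these neighbours were not separated. In HSD p53, at 20.7 CPM per kb, passed Ire1 (18.4) and Gcn2 (14.1), with overlap between p53 and Ire1. These lengths count all exons of BDGP6, and for crc they include bases shared with CG46314.

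HSD replicate 4 was the lowest HSD library in 8 of the 8 genes that rose. It was the lowest HSD library in 51.4% of all genes called higher and in 36.1% of all genes tested. Relative to the CD mean, its log2 level was 0.41 for crc, 0.64 for PEK, 0.58 for Xrp1 and 0.55 for p53, but -0.07 for Ire1 and 0.06 for Thor. HSD replicate 2 was at 0.58, 1.01, 0.97, 1.04, 0.56 and 0.85 for the same genes. HSD replicate 4 also had the fewest counts of its diet (14109310, against 19017382 to 19963565). All fat body markers examined except Lpin were higher in it than in any other HSD library. Lsp2, for example, was at 337, 682, 735 and 1595.5 CPM in the HSD libraries, and apolpp at 81.9, 144, 190 and 430 CPM. Lpin was lowest in HSD replicate 4. Whether fat body tissue took part in the low values of this library was not tested. HSD replicate 4 and CD replicate 1 were the libraries whose counts differed most from the others of their diet. Without both of them, 8 of the 10 genes were called higher, as with all libraries.

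**Figure D4:**
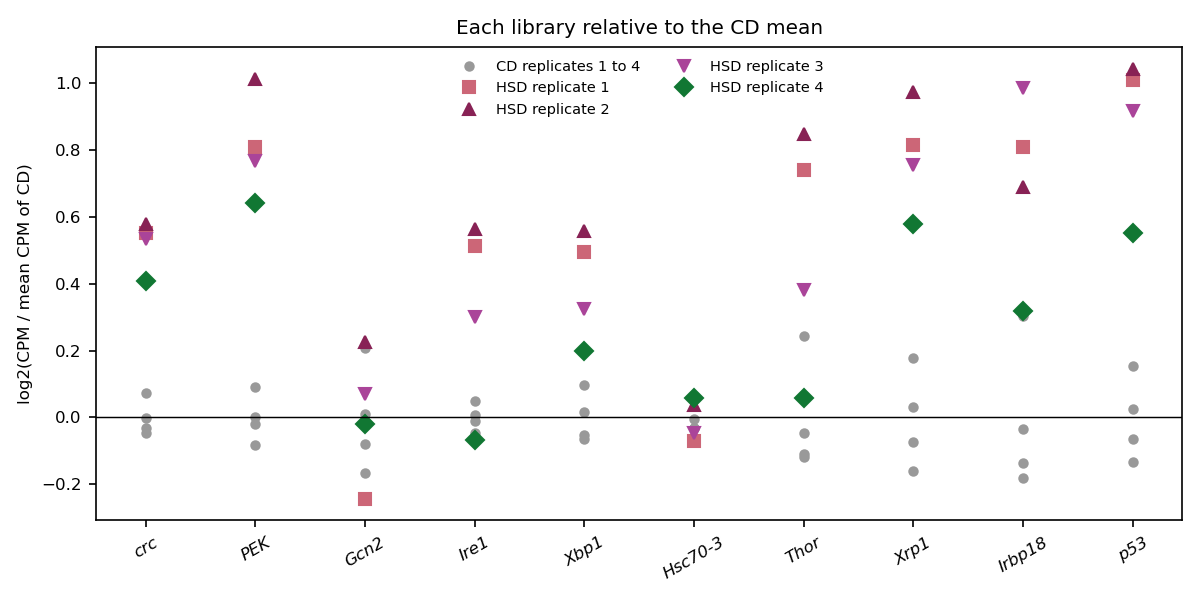
Log2 of the CPM of each library over the mean CPM of the 4 CD libraries, for each of the 10 genes. Grey points are CD libraries and coloured symbols are HSD replicates 1 to 4. HSD replicate 4 (diamonds) was the lowest HSD library in the 8 genes that rose, at 0.41 for crc and -0.07 for Ire1.

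The distance of the 10 genes from 0 depended on the scaling. Total counts alone moved the median over all genes by -0.13, and scaling to cytosolic ribosomal protein genes moved it by -0.34. Relative to that median, no gene of the 10 moved by more than 0.0102 on the log2 scale over the 5 scalings compared. A change of scaling shifts all genes by nearly the same amount, so this small movement is not particular to the 10 genes. Ribosomal protein genes took 12.1 to 13.3% of counts in CD and 13.7 to 15.5% in HSD.

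Under ribosomal protein scaling 5 of the 10 genes were called higher: crc (0.17), PEK (0.47), Xrp1 (0.44), Irbp18 (0.37) and p53 (0.54 on the log2 scale). Under that scaling Ire1 (-0.0055), Xbp1 (0.05) and Thor (0.18) were not called, Gcn2 was at -0.33 and not called, and Hsc70-3 was called lower (-0.35; edgeR quasi-likelihood test, adjusted p = 0.00625). Among all genes tested, that scaling called 1073 higher and 3948 lower and total counts 1848 and 2999, in place of 2400 and 2423.

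**Figure D5:**
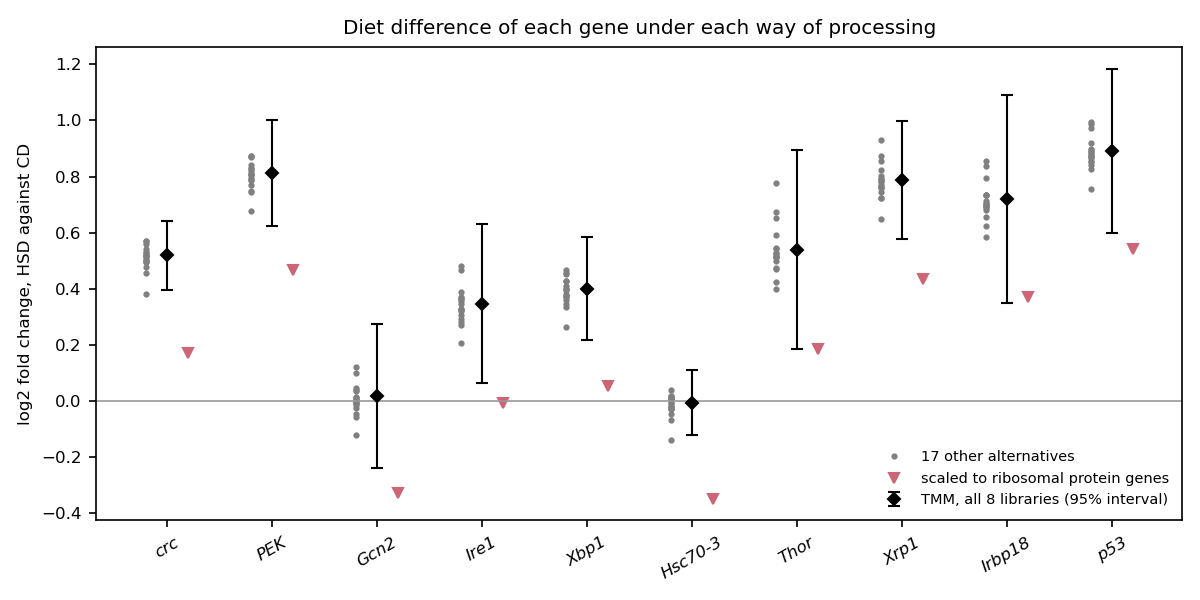
Log2 fold change of each of the 10 genes with all libraries and TMM scaling (diamonds with 95% intervals), under scaling to ribosomal protein genes (triangles) and under the other 17 alternatives (points). crc, PEK, Xbp1, Thor, Xrp1, Irbp18 and p53 stayed above 0 throughout, and the triangles of Gcn2 and Hsc70-3 lie at -0.33 and -0.35.

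Over the 8 libraries, the genes whose log2 CPM followed crc most closely among 7076 genes of at least 10 CPM were Drice, an effector caspase (Pearson's r = 0.998), CG5191 (0.997) and AspRS, an aminoacyl-tRNA synthetase (0.997). Drice, for example, went from 106 to 121 CPM in CD to 180 to 214 CPM in HSD. For Xrp1 they were Hibch (0.999), Mkp3, a phosphatase that acts on ERK (0.998), and AnxB11, an annexin (0.997). These values describe 8 libraries in 2 diet clusters, so much of each r is the step between the diets that many genes share.

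Cell type markers also moved between the diets. Eye disc markers were present in every library, at 2219 to 2449 CPM summed over 8 genes in CD and 1356 to 1666 CPM in HSD, with 5 of the 8 falling (toy, so, eya, dac and hth, by 0.61 to 1.32 on the log2 scale), Lim1 rising and ey (eyeless) at 117 to 124 and 113 to 128 CPM. Neuron markers were at 1760 to 2171 CPM in CD and 185 to 253 CPM in HSD, 7 of 8 genes falling. Haemocyte markers summed to 320 to 390 and 506 to 643 CPM, but without Ppn, the only one that rose, the other 6 summed to 133.6 to 170.7 and 107.1 to 224.4 CPM, and Pxn fell. The sums overlapped for glia (538 to 623 against 502 to 576 CPM) and muscle (406 to 499 against 379 to 505 CPM), although single markers changed: in glia repo, Eaat1 and wrapper fell and moody rose, and in muscle Mhc, up and Act57B fell and Mlc2 and bt rose. The fat body sum overlapped too (1602 to 2435 against 985 to 3411 CPM, 1 of 7 falling), and no marker was at 0 in all libraries. Whether these shifts in tissue makeup took part in the values of the 10 genes was not tested.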

How the data were processed

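The 10 genes and all gene lists were chosen with earlier results of these data known. RNA libraries (Illumina Truseq stranded mRNA, paired reads) were trimmed by the authors with Trim Galore 0.4.4, aligned with TopHat2 2.0.11 to dm3 and counted by gene with featureCounts; CASAVA 1.8.4 is also named in the submitters' processing notes. The authors deposited these counts as whole numbers, with no normalisation. No column was left unassigned to a sample. How multi-mapped reads were handled, and the strand setting, were not given in the sources used here.

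Counts were tested with edgeR 4.0.16 (R 4.3.3). After the filterByExpr filter 9257 genes remained, TMM factors were set, and diet was tested by the two-sided quasi-likelihood test with p-values adjusted for all of them (Benjamini-Hochberg, threshold 0.05). SEs were taken as the log2 fold change over the square root of F, with intervals at 95%. CPM used TMM library sizes. The test was checked on simulated counts in which few genes changed, up and down alike. Such counts cannot check the choice of scaling.

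Named were all 10 genes, the 4 largest called changes of each of 9 pathway lists, genes needed to read one of the 10, and the 3 genes most like crc and Xrp1 in log2 CPM (prior count 2). Other list genes were named to show what was not called, after their values were seen. Positions came from the BDGP6 annotation, another build than dm3, and none was converted. 7 listed genes without a matched row (AsnS, Psat, Pdi, Der-1, TER94, Atf-2 and CrebB) were not analysed here. Alternatives were 4 other scalings (upper quartile, DESeq2 size factors, ribosomal protein genes and total counts), 2 other filters, DESeq2 1.42.0, limma-voom (limma 3.58.1), each library left out in turn and a replicate block, with leaving out both CD replicate 1 and HSD replicate 4 added after seeing the data.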

Additional observations from a re-analysis of the deposited data

Results flagged for a closer look

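In 7 of 84 groups of 4 values examined, 1 library lay apart from the other 3 by more of the group's whole range than Dixon's 95% limit for 4 values allows, and chance gives about 4.2, or 1 in 20. None of the 10 genes was among them. HSD replicate 4 lay apart, below the others, in total counts (0.838 of the range), in log2 CPM of eIF2beta (0.938) and of CG11267 (0.865). HSD replicate 2 lay apart, above, in Lon (0.894). CD replicate 4 lay below the others in Hsp60A (0.932) and in SsRbeta (0.868), and CD replicate 3 below in trbl (0.866).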

How the results depend on the processing

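Of 18 alternatives, scaling to ribosomal protein genes moved the counts most: 1073 genes were called higher and 3948 lower, 5 of the 10 genes higher and 1 (Hsc70-3) lower, with the median of all genes at -0.34 on the log2 scale. Under it the log2 fold change turned below 0 for Ire1 (-0.0055), Herp (-0.040), Sec61beta (-0.010) and SsRbeta (-0.077). 5 of the 10 genes (crc, PEK, Xrp1, Irbp18 and p53) were called higher under each of the 18. Ire1 was not called under 9, also with upper quartile, total counts and a filter of 1 count, and its values with each library left out ranged from 0.27 to 0.47. Of the 31 other genes named as the largest called changes of the lists, 20 stayed on their side of the threshold throughout. Further genes named above, such as hid, eIF2alpha and P5CS, were not part of this count. With a replicate block 4609 genes were called, 8 of the 10 genes higher, but same-numbered libraries did not deviate together (correlations -0.061, -0.0042, 0.0748 and -0.152), so the numbers are not taken as pairs.

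Counts per library were 228 to 760 for Irbp18 and 277 to 916 for p53, the fewest of the 10 genes.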
